A study of Mus musculus with 4 samples.

Results

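Circular RNAs (circRNAs) of Ogdh and Cd36, 2 genes of energy metabolism, were examined in mouse heart. A circRNA forms when a downstream splice donor is joined to an upstream acceptor, and it is counted by reads that cross this back-splice junction. Every circRNA whose host label contained Ogdh or Cd36 was taken, which gave 5 of the 1046 circRNAs in the files, 2 from Ogdh and 3 from Cd36, with 61 of 7303 back-splice reads. All libraries were made from total RNA of heart tissue of C57BL/6 mice. The sham group had 2 libraries (sham 1 and sham 2, after surgery without the injury) and the I/R group had 2 (I/R 3 and I/R 4, from a model of myocardial ischemia-reperfusion injury, in which blood flow to heart muscle is stopped and restored). The labels give no age, sex, duration of ischemia or time after reperfusion, and leave unstated if libraries of the same group were made from separate hearts. A p-value therefore reflects library-to-library spread, of which some or all may be technical. In the fitted tests this spread is partly or wholly shared among the circRNAs tested. The study compared I/R with sham.

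The heart makes most of its ATP in mitochondria and draws much of its fuel from long-chain fatty acids. CD36, a membrane glycoprotein also called fatty acid translocase, takes these acids into cardiomyocytes, and it is also made by endothelial cells, adipocytes and macrophages. Their breakdown feeds acetyl-CoA into the tricarboxylic acid cycle. OGDH is the decarboxylating subunit of the 2-oxoglutarate dehydrogenase complex, which turns 2-oxoglutarate into succinyl-CoA in that cycle. Ischemia cuts the oxygen that both pathways need.

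The 5 junctions differ in which exons they join, so their sequences are shown first. Each span equals the distance between the outer ends of exactly 1 pair of exons of its gene in GENCODE M21, in which Ogdh has 7 transcripts and Cd36 has 6. Exons are numbered on Ogdh-201 (23 exons) and Cd36-202 (16 exons), the lowest-numbered coding transcripts that hold the pairs of all circRNAs of the gene. The transcripts are of another build (GRCm38) than the files (mm9), so exons were matched by distance and no coordinate was converted. Each line gives the last 15 bases of the donor exon in lower case and, in capitals, the first 15 bases of the acceptor exon, 5′ to 3′ on the gene's strand.
Ogdh exons 3 to 4: ccacagacaaacttgTCATGGGACATTTTT
Ogdh exons 5 to 8: gaggcagctgatgagGGTTCTATGGCCTAC
Cd36 exons 5 to 9: tgattaatggcacagGAAGTTGTCCTTGAA
Cd36 exons 10 to 12: ttagatgtggaacccACGCAGCCTCCTTTC
Cd36 exons 2 to 9: tgattaatggcacagCTGCCTTCTGAAATG
The circRNAs of Cd36 exons 5 to 9 and 2 to 9 share the donor end of exon 9 and differ in the acceptor.

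The circRNA of Ogdh exons 3 to 4 (mm9 chr11:6213791-6217083, plus strand, 3293 bp) was the most abundant of the 5 and the only one of them with a circBase identifier. Its exons measure 192 and 103 bases, 295 in all, and lie wholly in coding sequence (codons 75 to 173). The exon pair is found in 2 of the 7 Ogdh transcripts. It is the one circle short enough to print whole, and the capitals mark the 15 bases on each side of the junction.
Ogdh exons 3 to 4, circle opened at the junction: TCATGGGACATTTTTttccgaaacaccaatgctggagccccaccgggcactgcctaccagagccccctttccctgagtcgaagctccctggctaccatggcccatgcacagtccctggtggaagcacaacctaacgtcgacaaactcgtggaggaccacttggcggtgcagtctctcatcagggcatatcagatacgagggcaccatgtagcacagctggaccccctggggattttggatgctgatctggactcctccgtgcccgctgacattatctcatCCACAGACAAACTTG
The second Ogdh circRNA (mm9 chr11:6234536-6239931, plus strand, 5396 bp) begins with exon 5, the exon that follows the end of the first, and ends with exon 8. Its 4 exons hold 509 coding bases (codons 173 to 342), and the pair is found in 4 of the 7 transcripts.

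On Cd36 the leading circRNA (mm9 chr5:17316999-17326418, minus strand, 9420 bp) spans exons 5 to 9, with 628 bases of exon (codons 41 to 250, or 44.4% of the coding sequence). The circRNA at mm9 chr5:17301397-17304116 (minus strand, 2720 bp) begins with the next exon and spans exons 10 to 12, with 377 coding bases (codons 250 to 375). The exon pairs of both are found in 5 of the 6 Cd36 transcripts. The longest (mm9 chr5:17316999-17341489, minus strand, 24491 bp) spans exons 2 to 9, and its pair is found in 2 of the 6. Of its 983 exon bases 235 are untranslated, and it is the only one of the 5 that holds the start codon. The files class all 5 as exonic. Only the ends of a circle are read at its junction, so the exon bases assume that every exon between the ends is kept and every intron removed. No spliced length was a multiple of 3, and the exons of the Ogdh circles held 56.3% and 51.7% G and C, against 40.4% to 42.7% in those of Cd36.

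**Figure D1:**
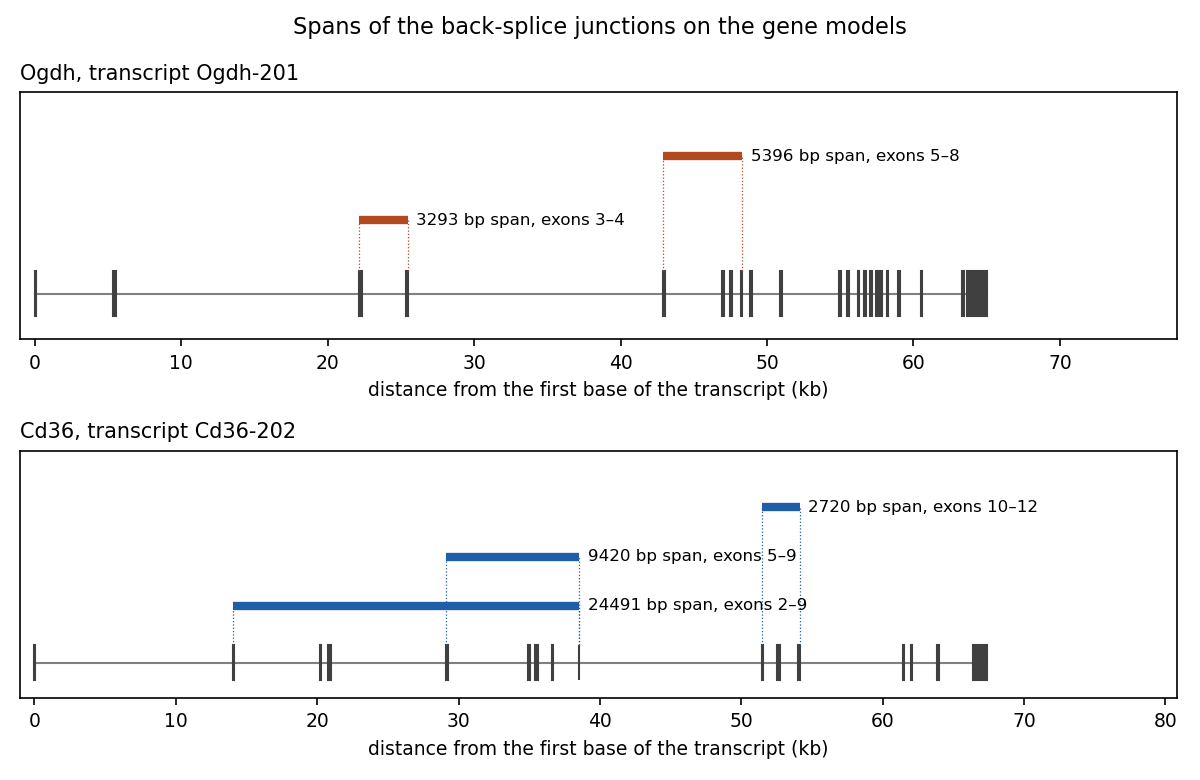
Spans of the 5 back-splice junctions (coloured bars) on GENCODE transcripts Ogdh-201 and Cd36-202 (dark boxes, exons to scale), against the distance from the first base of the transcript in kb. The Ogdh spans cover exons 3 to 4 and 5 to 8, those of Cd36 exons 2 to 9, 5 to 9 and 10 to 12, and dotted lines mark the outer exon ends.

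Depth was low, from 1627 (sham 2) to 1982 (I/R 4) back-splice reads per library, so that 1 read was worth 505 to 615 CPM (counts scaled to a library total of 1000000 back-splice reads). No library lists a circRNA with fewer than 2 reads, so a circRNA at 0 had 0 or 1 read. Of 15 cardiomyocyte marker genes 8 had listed circRNAs, among them Ttn, Ryr2 and Slc8a1, with 10.9% to 15% of the reads in sham 2, sham 1 and I/R 3 and 19.2% in I/R 4. The 7 without one include Myh7, Tnni3 and Actc1, and a gene without a listed circRNA may still have abundant mRNA. Endothelial markers, of which Pecam1 and Ptprm of 13 were listed, held 0.317% of the reads in sham 1, 0.430% in sham 2, 0.333% in I/R 3 and 0.505% in I/R 4, while the defining genes Cdh5, Kdr and Tek were at 0. All 9 fibroblast, 10 leukocyte and 6 smooth muscle or pericyte markers were at 0. Of 5 adipocyte markers only Pparg was listed, and Adipoq and Plin1 were at 0. The part of other cell types in the results was not tested, and in whole tissue fewer cells of a type cannot be told apart from less RNA per cell.

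The circRNA of Ogdh exons 3 to 4 was listed in every library at nearly the same count. It had 8 reads in sham 1, 9 in sham 2, 11 in I/R 3 and 8 in I/R 4. The groups overlapped, since the highest and the lowest level both belonged to I/R libraries. The sham mean was 4882 ± 918 CPM, against 5067 ± 1458 CPM for I/R (SD, n = 2). The log2 fold change (I/R over sham) was 0.18 with a standard error (SE) of 0.34 and a 95% interval from -0.75 to 1.10, and it did not pass edgeR's quasi-likelihood test (adjusted p = 0.922). The share of tested circRNAs that passed this test was 0% of 158, with 9 at an unadjusted p under 0.05 in edgeR, 6 in DESeq2 and 7 in limma-voom. From the reads alone the I/R over sham ratio was 1.04, with an exact 95% interval from 0.511 to 2.13 that covers counting error only. On a log scale this interval is wider than the fitted interval, so the fitted SE is too small here. Without I/R 3 the fitted value turned to -0.23, and without I/R 4 it was 0.39.

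The circRNA of Cd36 exons 5 to 9 was also listed in every library, with lower fitted levels in I/R that did not pass the test. It had 4 reads in sham 1, 6 in sham 2, 2 in I/R 3 and 4 in I/R 4. Sham 2 was highest and I/R 3 lowest, and sham 1 and I/R 4 had equal reads. Scaled to depth, sham 1 (2116 CPM) lay just above I/R 4 (2018 CPM), so the groups did not overlap. This also held with edgeR's TMM factors, as for 20.3% of the 158 tested circRNAs in the direction of lower I/R. Counting both directions, the groups did not overlap for 37.3%. The sham mean was 2902 ± 1111 CPM, and that of I/R was 1563 ± 643 CPM (SD, n = 2). The log2 fold change was -0.70 (SE 0.59, 95% interval -2.33 to 0.94, edgeR adjusted p = 0.920). The ratio from the reads alone was 0.557, with an exact interval from 0.166 to 1.69. On a log scale this exact interval is again wider than the fitted interval. The fitted value was -0.45 without I/R 3 and -1.25 without I/R 4.

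The remaining 3 circRNAs were each listed in 1 sham library and in no I/R library. The circRNA of Ogdh exons 5 to 8 had 3 reads in sham 2. In sham 1 the circRNA of Cd36 exons 10 to 12 had 4 reads and that of Cd36 exons 2 to 9 had 2. None reached the 10 reads asked for by the test. Being listed in a single library was common in the series, where 674 of 1046 circRNAs (64.4%) were, 347 of them (51.5%) in a sham library. At the limit of 2 reads for listing, presence in 1 library at 2 to 4 reads does not separate the groups.

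**Figure D2:**
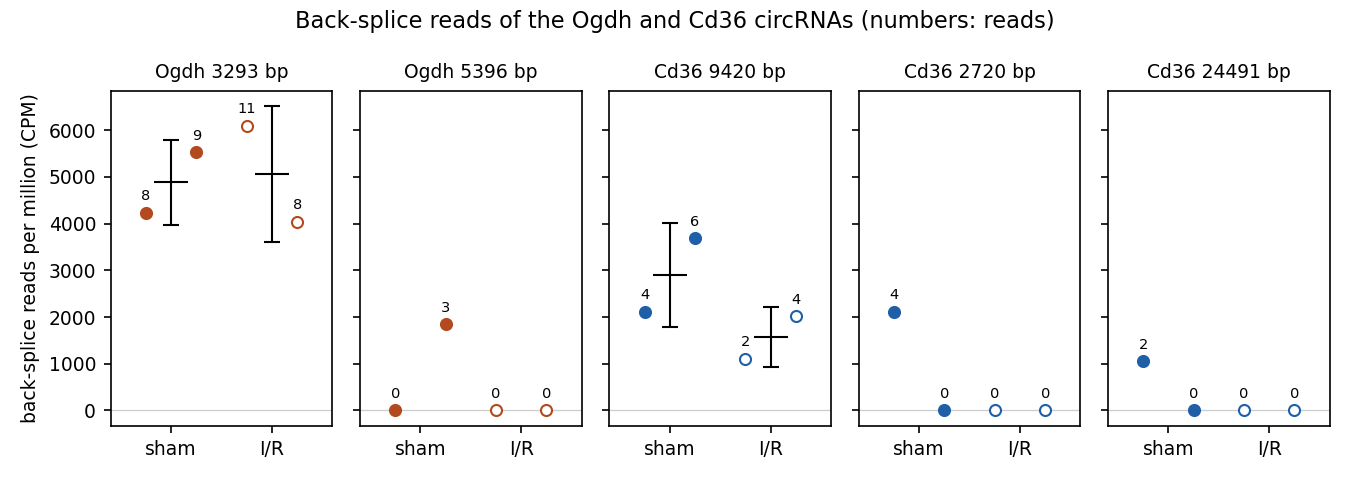
Back-splice reads (CPM) of the 5 circRNAs in the sham (filled) and I/R (open) libraries, with the read count at each point and, where every library lists the circRNA, the group mean and SD (n = 2). The Ogdh 3293 bp circRNA (exons 3 to 4) has 8 to 11 reads in every library, the Cd36 9420 bp circRNA (exons 5 to 9) 2 to 6, and the other 3 are listed in 1 sham library each.

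Reads were next summed over the circRNAs of each gene. Ogdh reads numbered 8 in sham 1, 12 in sham 2, 11 in I/R 3 and 8 in I/R 4. The sham mean was 5804 ± 2222 CPM, against 5067 ± 1458 CPM for I/R (SD, n = 2). The groups overlapped, and the log2 fold change was -0.03 (SE 0.48, edgeR adjusted p = 0.978). Cd36 had 10, 6, 2 and 4 reads in the same order. Both I/R libraries lay below both sham libraries, as in 14.4% of the 153 host genes tested in this direction. Counting both directions, the groups did not overlap in 35.3%. The sham mean was 4489 ± 1134 CPM, and that of I/R was 1563 ± 643 CPM (SD, n = 2). The log2 fold change of Cd36 was -1.32 (SE 0.69, 95% interval -2.95 to 0.30), with an edgeR unadjusted p = 0.0964 and adjusted p = 0.867, so it did not pass. In this test 0% of the hosts passed, with 8 at an unadjusted p under 0.05 in edgeR, 4 in DESeq2 and 8 in limma-voom. The ratio of Cd36 from the reads alone was 0.348, with an exact interval from 0.112 to 0.937 that leaves out the spread between libraries. Of the 16 sham reads, 6 came from the 2 circRNAs listed in sham 1 alone. With only circRNAs listed in all libraries the change of Cd36 was -0.73 (adjusted p = 0.947, edgeR), a setting chosen after seeing the data. Leaving out 1 library gave values from -1.92 (without I/R 4) to -0.89 (without I/R 3), none of which passed.

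For comparison, the authors' deposited table lists a log2 fold change of 0.11 for Ogdh exons 3 to 4 (adjusted p = 0.893) and -0.72 for Cd36 exons 5 to 9 (adjusted p = 0.524). The authors' deposited table gives -1.5 for Ogdh exons 5 to 8, -1.56 for Cd36 exons 10 to 12 and -1.18 for Cd36 exons 2 to 9, each with an adjusted p = 0.524. These last values rest on 2 to 4 reads in 1 library and depend on how a count of 0 is treated.

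The splice sites of both genes carried many reads that did not cross the back-splice junction. Such non-junction reads can stem from linear RNA or from parts of a circle away from its junction. At Ogdh exons 3 to 4 there were 1689 and 1561 in sham and 1757 and 2630 in I/R. I/R 4 was highest, and both I/R libraries lay above both sham libraries, also after scaling with edgeR's TMM factors. On scaled counts this was so for 27.5% of the 102 circRNAs listed in all 4 libraries. Counting both directions, the groups did not overlap for 58.8%. At Cd36 exons 5 to 9 there were 2182 and 1418 in sham and 1281 and 1869 in I/R, so the groups overlapped. Among these 102 circRNAs Ogdh ranked 4 and Cd36 ranked 5 by total non-junction reads (7637 and 6750), against a median of 329.5. By total back-splice reads they ranked 18 and 72 of 102.

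The 3 less abundant circRNAs had similar numbers, where listed. There were 2267 non-junction reads at Ogdh exons 5 to 8 in sham 2, more than the 1561 at exons 3 to 4 in that library. In sham 1 there were 1982 at Cd36 exons 10 to 12 and 1203 at exons 2 to 9. The latter was below the 2182 at exons 5 to 9, although the donor of exon 9 is common to both junctions, so some of these reads may be counted at both.

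Against this background the circular share was small. The share divides 2 times the back-splice reads by this number plus the non-junction reads. For Ogdh exons 3 to 4 it was 0.938% in sham 1 (95% Clopper-Pearson interval 0.407 to 1.84, counting error only), 1.14% in sham 2 (0.524 to 2.15), 1.24% in I/R 3 (0.620 to 2.2) and 0.605% in I/R 4 (0.262 to 1.19). I/R 4 was lowest and I/R 3 highest, so the groups overlapped, and the sham mean of 1.04 ± 0.143% stood beside 0.921 ± 0.447% for I/R (SD, n = 2). An exact permutation test gave a two-sided p = 1. For Cd36 exons 5 to 9 the share was 0.365% in sham 1 (0.0997 to 0.931), 0.839% in sham 2 (0.309 to 1.81), 0.311% in I/R 3 (0.0378 to 1.12) and 0.426% in I/R 4 (0.116 to 1.09). Only sham 2 stood above the rest, and the sham mean of 0.602 ± 0.335% stood beside 0.369 ± 0.0813% for I/R (SD, n = 2). The exact permutation test gave a two-sided p = 0.667. With 2 libraries against 2 this test cannot give a p below 0.333. The intervals of the 4 libraries overlapped for each gene.

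Cd36 exons 5 to 9 had the second lowest mean share of the 102 circRNAs (0.485%) and Ogdh exons 3 to 4 the sixth lowest (0.980%), against a median of 11% and a lower quartile of 5.37%. The 10 lowest also held circRNAs of Tpm1 (0.0512%), Ryr2 (0.678%, 0.855% and 1.07%) and Ttn (1.01%, 1.09% and 1.65%), genes of the thin filament, calcium release and the sarcomere, and a chromosome 14 circRNA without a host gene (0.669%). The share falls by its definition where non-junction reads are many. Across the 102 circRNAs back-splice and non-junction totals had a Spearman rho of 0.15 and a Pearson r of 0.33 on log10 values, a description over circRNAs that share libraries and, in part, host genes.

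**Figure D3:**
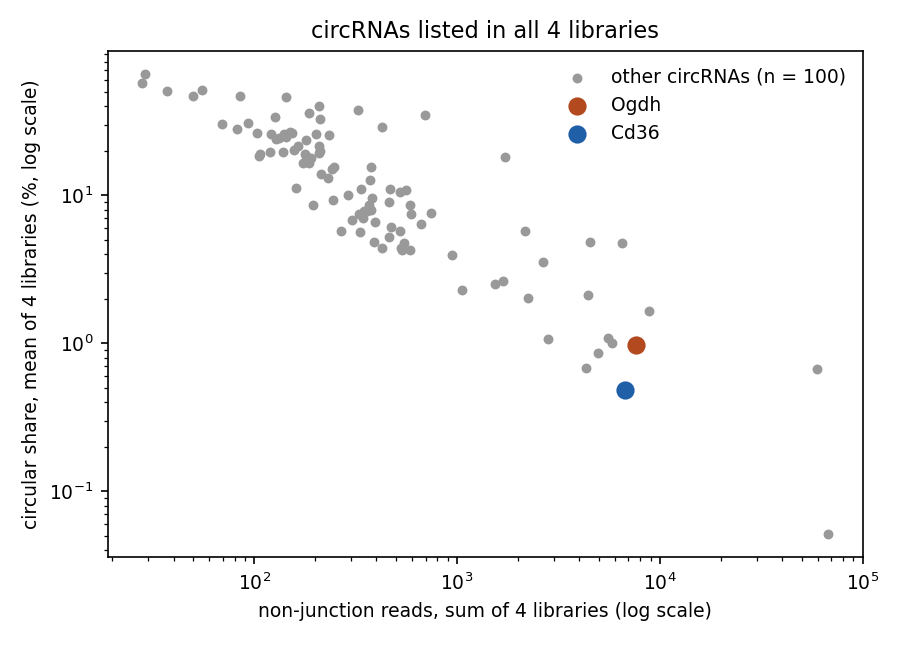
Mean circular share over 4 libraries (%, log scale) against the sum of non-junction reads (log scale) for the 102 circRNAs listed in every library, with the Ogdh exons 3 to 4 and Cd36 exons 5 to 9 circRNAs coloured. Ogdh (0.980% at 7637 reads) and Cd36 (0.485% at 6750 reads) lie at the lower right.

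The non-junction reads themselves were compared between groups over the same 102 circRNAs. Of these 8.82% passed (9 of 102, adjusted p under 0.05 in edgeR), and neither Ogdh nor Cd36 was among them. At Ogdh the log2 fold change was 0.51 (SE 0.21, 95% interval 0.10 to 0.92), with an edgeR unadjusted p = 0.0142 and adjusted p = 0.101. This SE rests on a spread pooled over the 102 circRNAs, not on that of Ogdh itself. Scaled with TMM factors, Ogdh had 29237 and 26823 CPM in sham and 33146 and 46712 CPM in I/R. An unadjusted p under 0.05 was common in this test, with 27 of the 102 in edgeR and 31 in limma-voom. By its p in edgeR, Ogdh ranked 14 of 102. At Cd36 the change was -0.12 (SE 0.20, interval -0.52 to 0.29, edgeR adjusted p = 0.715). Without scaling factors the change at Ogdh was 0.30 (interval -0.12 to 0.71, edgeR adjusted p = 0.366). The median change of the 102 also moved, by -0.20, from -0.04 to -0.23. Ogdh stood 0.55 above that median with the factors and 0.53 above it without them. Scaling moves all circRNAs of a library together, so this distance could hardly change and is no check on the scaling. The change at Ogdh was 0.79 without I/R 3 and 0.24 without I/R 4, the library with 2630 reads. The sign at Cd36 turned when sham 1 was left out (0.24) or I/R 3 (0.15). Each of these fits leaves a group without a replicate.

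A ratio of the 2 genes within a library needs no scaling between libraries. Ogdh non-junction reads were 0.774 times those of Cd36 in sham 1, 1.10 times in sham 2, 1.37 times in I/R 3 and 1.41 times in I/R 4. Both I/R libraries lay above both sham libraries, and the sham mean was 0.937 ± 0.231, against 1.39 ± 0.0252 for I/R (SD, n = 2). The two-sided p from the exact permutation test was 0.333, the smallest possible here. How often the ratio of other pairs of circRNAs separates the groups was not counted. For scaled non-junction reads of single circRNAs, 58.8% of the 102 separated the groups, counting both directions. The same ratio of back-splice reads was 2, 1.5, 5.5 and 2. Here sham 1 and I/R 4 were equal, and the groups overlapped (exact permutation test, p = 0.667).

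**Figure D4:**
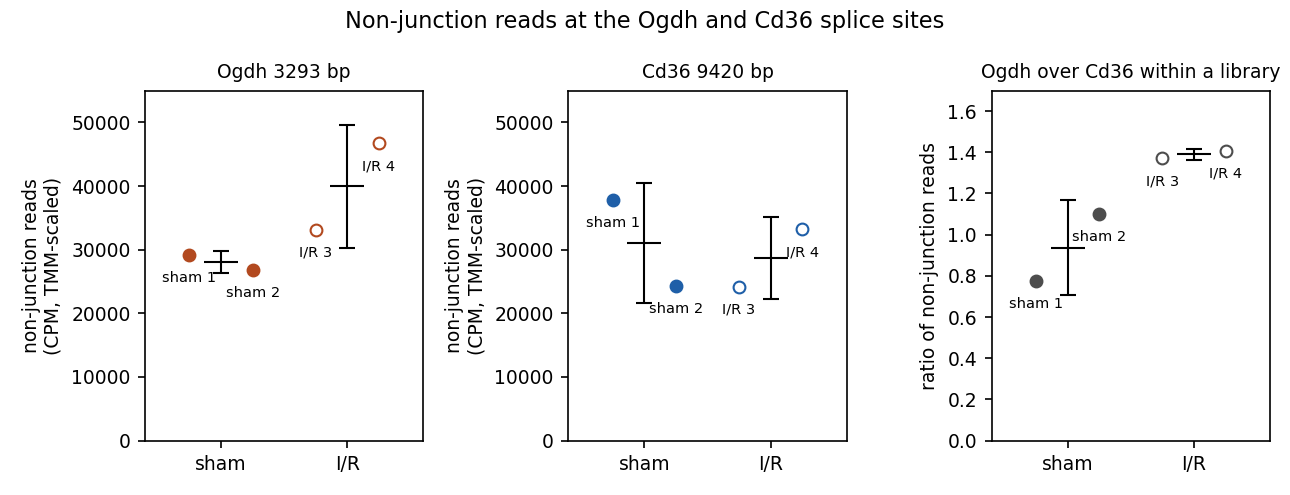
Non-junction reads at Ogdh exons 3 to 4 and Cd36 exons 5 to 9 per library, scaled with edgeR's TMM factors (CPM over 102 circRNAs), and the ratio of Ogdh to Cd36 reads within each library; bars give the mean and SD (n = 2). The ratio is 0.774 and 1.10 in sham against 1.37 and 1.41 in I/R, while the Cd36 libraries of the groups overlap.

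The change of back-splice relative to non-junction reads was fitted in one model over both kinds of read. The log2 ratio change was -0.33 for Ogdh exons 3 to 4 (SE 0.48, 95% interval -1.42 to 0.77, edgeR adjusted p = 0.826) and -0.64 for Cd36 exons 5 to 9 (SE 0.65, interval -2.12 to 0.83, edgeR adjusted p = 0.826). In this test 0% of the 102 circRNAs passed, with 4 at an unadjusted p under 0.05 in edgeR and 8 in limma-voom. The Ogdh value was -0.88 without I/R 3 and turned to 0.14 without I/R 4. That of Cd36 was -1.18 without sham 1 and -0.12 without sham 2.

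**Figure D5:**
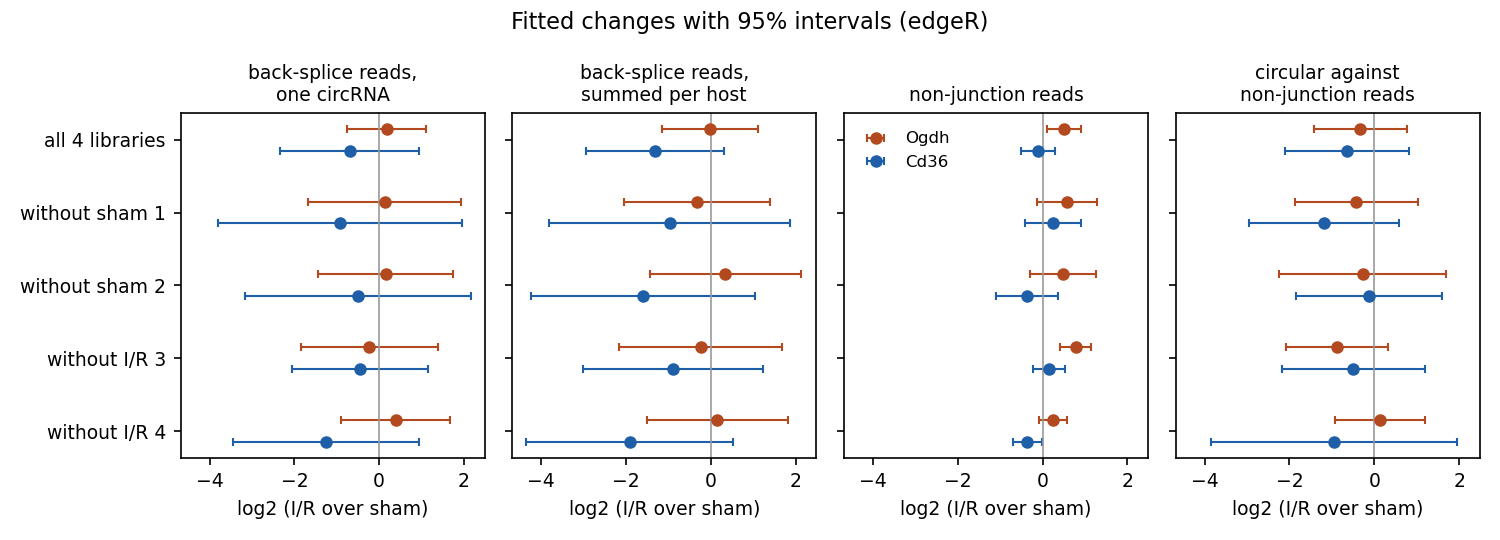
Fitted log2 changes (I/R over sham) with 95% intervals from edgeR for Ogdh and Cd36 in back-splice reads of the leading circRNA, back-splice reads per host, non-junction reads and their ratio, with all libraries and with each left out. With all 4 libraries the interval of Ogdh non-junction reads (0.10 to 0.92) lies above 0, and the other 7 intervals include 0.

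Other genes of the pathway were looked up in a list of energy metabolism. Of its 157 genes, 13 had a listed circRNA, in a series with 710 host labels. The share of all genes with a listed circRNA was not counted. The 13 hosts had 16 circRNAs and 96 reads, and Ogdh and Cd36 held 61 of these reads (63.5%). Of the other 11 hosts only Mlxipl, a glucose-responsive transcription factor, and Pparg, a regulator of lipid storage, had 5 reads or more. In the order sham 1, sham 2, I/R 3, I/R 4, Mlxipl had 3, 4, 0 and 3 reads and Pparg had 0, 2, 2 and 2. Of the 3 hosts that could be tested 0 passed in either direction (Mlxipl -1.10, SE 1.56, edgeR adjusted p = 0.947). The remaining 9 hosts had 2 or 3 reads in 1 library each. They were Aco1, Dlat and Dlst of the tricarboxylic acid cycle and its feeding complexes, Eci1 and Etfa of fatty acid oxidation, Ldha, Pfkfb2 and Phkb of glucose and glycogen use, and Atp5o of ATP synthase. Dlst, which encodes the succinyltransferase of the same complex as Ogdh, had 2 reads in sham 1, with 323 non-junction reads and a share of 1.22%.

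The circRNAs of the list took 1.69% (sham 1) and 1.6% (sham 2) of the back-splice reads, against 0.942% (I/R 3) and 1.06% (I/R 4). Without Cd36 the shares were 1.16%, 1.23%, 0.831% and 0.858%. Reads of Ttn circRNAs, which enter the total, made up 7.25%, 4.00%, 10.03% and 14%, and of the reads without them the list held 1.83%, 1.66%, 1.05% and 1.23%. All these values rest on the same few reads or on part of them, 32 and 26 in the sham libraries and 17 and 21 in the I/R libraries. Both sham values lay above both I/R values, which was not tested for the list. Of single host genes, scaled with TMM factors, 14.4% also showed this, and in 35.3% the groups did not overlap, counting both directions. The list values are sums over hosts without these factors, so the measures are unlike. Of the 12 circRNAs of the list seen in 1 library, 7 were in sham 1, 2 in sham 2, 1 in I/R 3 and 2 in I/R 4, and 3 of those in sham were the circRNAs of Ogdh and Cd36 described above. In the same order, the 674 circRNAs of the series seen in 1 library split into 199, 148, 142 and 185, with 51.5% in sham. The difference between these splits was not tested. Medians were also taken over single values, 1 for each circRNA in each library that lists it. For the 11 circRNAs of the list from other hosts (15 values) they were a circular share of 10.3% and 52 non-junction reads. All circRNAs of the series (1705 values) had 8.33% and 65. The 5 of Ogdh and Cd36 (11 values, mostly of the circRNAs listed in every library) had 0.426% and 1757.

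Profiles over the 4 libraries were compared among the 102 circRNAs, by the distance between log2(CPM + 500) values centred on their own mean. Closest to Ogdh exons 3 to 4 were circRNAs of the kinase genes Tlk1 (distance 0.15, with 18, 22, 28 and 19 reads) and Stk39 (0.16) and of the acetyltransferase gene Kat6b (0.21), against a median of 0.79 over 101 circRNAs. Closest to Cd36 exons 5 to 9 were those of the protease gene Tasp1 (0.16, with 5, 8, 3 and 6 reads), the transcription factor gene Rreb1 (0.26) and the kinase gene Hipk3 (0.35), against a median of 1.15. With 4 libraries and counts this low, likeness is a description only.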

How the data were processed

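Back-splice and non-junction reads were analysed in 4 heart libraries. The authors deposited raw counts of both kinds per circRNA and library, and the circular share as a fraction rounded to 3 decimals (it deviates by at most 0.0005 from the counts). The counts in the deposited merged matrix matched in all cells. The tools are HTSeq 0.9.1 and BWA 0.7.5a-r405 and the build mm9, per the submitters' processing notes. Which program called circRNAs is not given in the sources used. The authors' deposited table holds, per the file headers, log2 fold changes and p-values, beside limma's t and B as score columns.

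Counts were tested with edgeR 4.0.16 (quasi-likelihood, TMM, Benjamini-Hochberg at 0.05) in R 4.3.3, for circRNAs or hosts with 10 reads in all and a read in at least 2 libraries, or, for non-junction reads and ratios, for circRNAs listed in all 4. The ratio was the interaction of read kind and group with library as a term. SEs come from the F statistic. At few reads they can lie below counting error. Fits were tested on simulated data with the same spread set for every circRNA. There the fit of back-splice reads missed most of the changes put in, and that of non-junction reads found most. DESeq2 1.42.0 and limma 3.58.1 were alternatives. Of 213 list genes 212 have a RefSeq entry (GRCm38.p6), and exons and sequences come from GENCODE M21. Members, lists and tests were chosen with earlier results of these data known. Named are the circRNAs of both hosts, hosts of the energy list (at least 5 reads; the rest were named after their values were seen) and the 3 closest profiles.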

Additional observations from a re-analysis of the deposited data

How the results depend on the processing

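No paired analysis was possible because the groups share no replicate number. Without a filter 3 circRNAs and 1 host were called, against 0 each otherwise, and 0 in every setting that left out a library; neither Ogdh nor Cd36 was called there. Non-junction calls went from 9 to 13 with limma-voom, 5 with DESeq2 size factors, 4 with library totals alone, 4 without the Tpm1 and chromosome 14 circRNAs, 1 with at least 20 junction reads, and 1 to 8 without a library. Calls of circular against non-junction reads went from 0 to 1 with DESeq2 size factors, with at least 20 junction reads or without Ttn circRNAs, and ranged from 0 to 2 without a library. Cd36 exons 5 to 9 has 16 reads and could not be fitted at 20.

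For Ogdh exons 3 to 4, leaving out a library left its group without a replicate. Log2 changes then ranged from -0.23 to 0.39 in back-splice reads (turned without I/R 3) and from 0.24 to 0.79 in non-junction reads. Those in their ratio ranged from -0.88 to 0.14 (turned without I/R 4). Summed Ogdh reads, at -0.03, turned to 0.00029 in limma-voom and 0.14 with circRNAs listed in all libraries, and ranged from -0.34 to 0.34 without a library. For Cd36 exons 5 to 9 the ranges were -1.25 to -0.45, -0.36 to 0.24 (turned without sham 1 and without I/R 3) and -1.18 to -0.12; summed Cd36 reads kept values below 0 in each alternative run. The difference in circular share (I/R minus sham, percentage points) ranged from -0.43 to 0.20 for Ogdh and from -0.47 to 0.0035 for Cd36 without a library. Where a library or setting changed a call or direction, the cause was not tested. Removals of host circRNAs, of Tpm1 and chromosome 14 circRNAs and of Ttn circRNAs from the ratio were chosen after seeing the data. Depth was 8 to 11 back-splice reads per library for Ogdh exons 3 to 4 and 2 to 6 for Cd36 exons 5 to 9, for which counting error alone gives I/R over sham ratios from 0.511 to 2.13 and from 0.166 to 1.69.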

Other observations

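Read names place the back-splice reads of the leading circRNAs in several sequencing lanes. The reads of Ogdh exons 3 to 4 came from 4 and 3 lanes in sham 1 and 2 and from 4 lanes in both I/R libraries. The reads of Cd36 exons 5 to 9 came from 3 and 4 lanes in sham and from 2 and 3 in I/R. The 2 reads of Cd36 exons 2 to 9 in sham 1 came from 1 lane. Every read had its own name, and 0 names were shared between the 5 circRNAs.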
